A study of Mus musculus with 16 samples.

Results

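Major histocompatibility complex (MHC) class II genes and their transactivator were followed across visceral fat and skeletal muscle of the same mice. The members were the 7 genes H2-Aa, H2-Ab1, H2-Eb1, H2-DMa, H2-DMb1, Cd74 and Ciita. They were found by matching the Ensembl identifiers of the count table to GENCODE M21 symbols, and all 7 had a row among the 55536 genes of the table. The rule goes by gene name alone.

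RNA was sequenced in visceral fat and in red gastrocnemius of 8 female mice. The 4 knockout mice (KO, "Conditional MusMyD88-/-", mice 139, 958, 960 and 29) are described as a muscle knockout of MyD88. The 4 control mice ("Cre-Control", mice 131, 137, 138 and 11) are labelled as Cre controls. Mice of both genotypes had run on wheels for 5 weeks and had then been kept for 8 days in a small cage that limits movement, so no group was without that treatment. Each mouse gave 1 fat and 1 muscle library, which makes 4 fat KO, 4 fat control, 4 muscle KO and 4 muscle control libraries, each group of 4 separate mice. The promoter that drives Cre, the age and the strain of the mice were not given in the sources used here. MyD88 is an adaptor that carries signals of Toll-like receptors and of interleukin-1 family receptors.

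Class II molecules present peptides from engulfed material to CD4+ T cells. An alpha and a beta chain pair in the endoplasmic reticulum with the invariant chain Cd74, whose remnant is exchanged for a peptide with the help of H2-DM. Ciita is the coactivator that switches these genes on by docking on the RFX, NF-Y and CREB factors at their promoters, and it is itself controlled by separate promoters in myeloid cells, in B cells and downstream of interferon-gamma. Dendritic cells, macrophages and B cells are the classical class II-positive cells of muscle and adipose tissue, and adipocytes can also carry class II.

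H2-Aa, H2-Ab1, H2-Eb1, H2-DMa and H2-DMb1 lie together on mouse chromosome 17 (GRCm38), while Ciita and Cd74 lie on other chromosomes. In GENCODE M21, H2-Ab1 spans chr17:34257689-34269419 on the plus strand, H2-Aa chr17:34282744-34287823 on the minus strand and H2-Eb1 chr17:34305867-34316674 on the plus strand. H2-DMa spans chr17:34119541-34139101 and H2-DMb1 chr17:34153072-34160230, both on the plus strand, and Ciita spans chr16:10480059-10528418 on the plus strand.

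RefSeq windows of 300 bases around the annotated start (250 before, 50 after, GRCm38.p6) were at hand for 4 of the 7 members, and the 3 that hold the motif pair searched are shown because the X and Y boxes are, as background, where the partners of Ciita bind. The windows are H2-Aa at chr17:34287774-34288073 on the minus strand, H2-Eb1 at chr17:34305617-34305916 on the plus strand and H2-DMb1 at chr17:34152941-34153240 on the plus strand. Capitals mark GNAAC, letters of an RFX half-site within the X box, and ATTGG, the core of the Y box to which NF-Y binds.
H2-Aa: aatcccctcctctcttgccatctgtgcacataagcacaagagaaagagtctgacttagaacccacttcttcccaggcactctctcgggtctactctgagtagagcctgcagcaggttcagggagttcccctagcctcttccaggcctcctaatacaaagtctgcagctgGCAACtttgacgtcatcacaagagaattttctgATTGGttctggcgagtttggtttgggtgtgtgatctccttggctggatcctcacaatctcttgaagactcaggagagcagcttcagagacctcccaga
H2-Eb1: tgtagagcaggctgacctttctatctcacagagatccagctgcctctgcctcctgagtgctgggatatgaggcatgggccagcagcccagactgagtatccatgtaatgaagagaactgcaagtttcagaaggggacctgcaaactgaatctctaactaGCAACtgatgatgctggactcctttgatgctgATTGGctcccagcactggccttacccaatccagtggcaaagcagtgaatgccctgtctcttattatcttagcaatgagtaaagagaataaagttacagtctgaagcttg
H2-DMb1: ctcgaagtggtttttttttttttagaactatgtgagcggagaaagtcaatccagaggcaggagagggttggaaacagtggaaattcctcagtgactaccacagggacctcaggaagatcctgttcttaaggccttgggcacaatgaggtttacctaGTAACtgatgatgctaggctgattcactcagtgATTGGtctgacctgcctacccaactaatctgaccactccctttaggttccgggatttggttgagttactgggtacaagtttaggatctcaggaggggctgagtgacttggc

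The search took GNAAC followed by ATTGG on the same strand, with their starts 15 to 45 bases apart and so without overlap, on both strands of each window. The letters and the spacing were chosen with class II promoters in view. H2-Aa had the pair with starts 33 bases apart, H2-Eb1 with 32 and H2-DMb1 with 33. The pair stood in 4.87% of 32851 promoter windows of the same length, ATTGG alone in 37.4% and GNAAC alone in 84.8%. Among the other class II genes, H2-Oa (33 bases), H2-Ob (30) and H2-Eb2 (32) had the pair and the window of H2-DMb2 did not. The annotated start of that window lies 1942 bases from the GENCODE start of H2-DMb2. Both windows of H2-DMa lacked the pair, and their annotated starts lie 3291 and 5977 bases from the start that GENCODE gives for the gene. The first of them also covers the annotated start of Brd2 on the opposite strand. The GENCODE starts of H2-DMa and H2-DMb2 were thus not searched. The H2-DMb2 window does hold ATTGG, preceded by the letters TTAAC, which lack the first G of GNAAC. H2-Ab1, Cd74 and Ciita had no window in the table.

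Total counts ran from 13242243 to 19114782 in fat and from 15203806 to 21747345 in muscle, so 3 counts, the floor used for an unseen gene, equal 0.138 to 0.227 CPM (counts scaled to a fixed library size). The targeted gene Myd88, counted over all its exons, had 1.66 to 2.13 CPM in muscle KO libraries and 2.11 to 3.43 CPM in muscle control libraries, and its log2 difference of -0.47 was not called (edgeR quasi-likelihood test, adjusted p = 0.949). In fat Myd88 averaged 15.6 ± 1.26 CPM in KO mice and 16.4 ± 1.28 CPM in control mice (SD, n = 4 each). Skeletal muscle markers summed to 100091 to 130949 CPM in muscle libraries, and adipocyte markers to 19532 to 23799 CPM in 7 of the 8 fat libraries. Control mouse 138 had a fat library unlike the rest, with 4186 CPM of adipocyte markers, 14615 CPM of smooth muscle markers against 389 to 888 in the other fat libraries, and 1500 CPM of urothelium markers against 11.3 to 31.2. In the muscle libraries of control mice 131 and 11 the ribosomal gene CT010467.1 took 19833 to 27974 CPM, against 16.8 to 35.2 CPM in the other muscle libraries.

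The transcripts of all 7 members were more abundant in visceral fat than in red gastrocnemius. As TPM, the median ratio within a mouse ran from 6.01 times for H2-DMa to 13.1 times for H2-DMb1. These ratios carry no TMM scaling, and on library totals alone the median of all genes tested was itself 1.36 (log2) higher in fat. With TMM scaling the members differed by less, 1.72 (H2-DMa) to 2.75 (Ciita) in log2. Levels are given per length as TPM, counts divided by the length of all exons of the gene and scaled to the same sum in every library. Cd74, the invariant chain, was the most abundant member, with 301 TPM in the lowest, 553 in the median and 713 in the highest of the 8 fat libraries, against 35.5, 48.2 and 68.0 TPM in the 8 muscle libraries. Its lowest fat library lay above its highest muscle library, as did that of each of the other 6 members. The share of all genes that separate the tissues in this way was not counted, and 79.6% of 17084 genes were called between the tissues. The separation by itself therefore does not set the members apart. In bulk tissue, more cells that carry a transcript and more transcript in each cell cannot be told apart.

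H2-Ab1, the beta chain of the I-A molecule, had 88.7, 149 and 200 TPM (lowest, median, highest) in fat and 10.2, 14.8 and 19.7 TPM in muscle. H2-Aa, the alpha chain of I-A, had 70.5, 128 and 167 TPM in fat and 7.5, 10.9 and 14.9 TPM in muscle. H2-Eb1, the beta chain of I-E, had 86.5, 178 and 216 TPM in fat and 9.46, 12.4 and 20.3 TPM in muscle. The transcripts of these 3 chain genes thus lay close together in both tissues. The peptide exchange factor is made of H2-DMa and H2-DMb1 and was scarcer. H2-DMa had 7.21, 9.92 and 14.1 TPM in fat and 1.18, 1.68 and 2.49 TPM in muscle. H2-DMb1 had 8.91, 17.7 and 20.6 TPM in fat and 0.809, 1.48 and 2.66 TPM in muscle. Per length Ciita was the least abundant member, with 4.08, 5.87 and 8.33 TPM in fat and 0.235, 0.453 and 0.618 TPM in muscle.

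**Figure D1:**
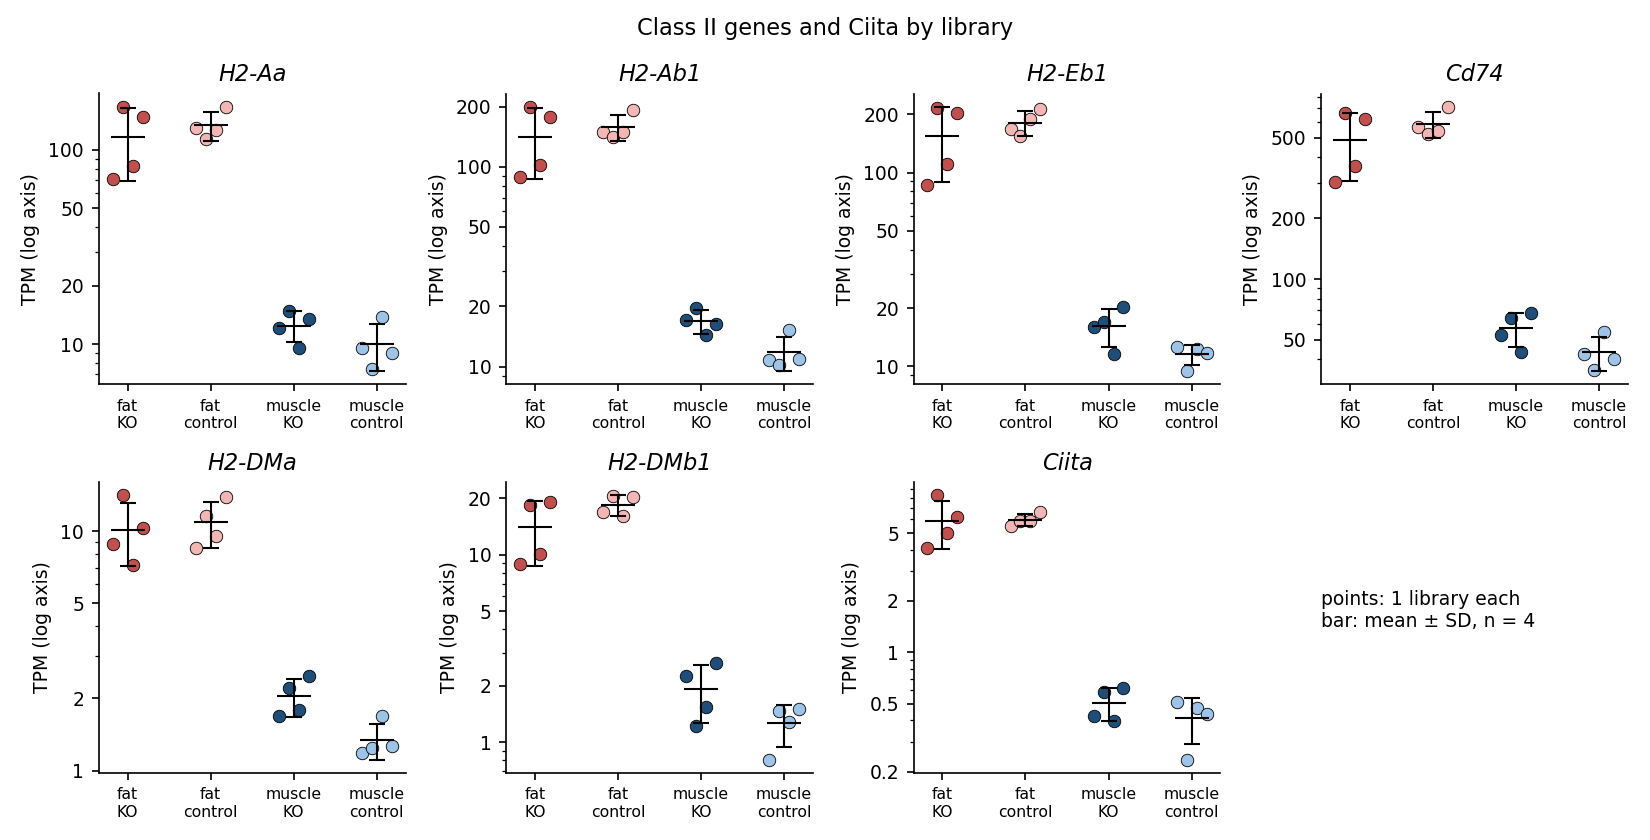
TPM of each member (log axis) in the 4 fat KO, 4 fat control, 4 muscle KO and 4 muscle control libraries, 1 point per library, with the mean and SD of each group (n = 4). Every fat library lies above every muscle library for each of the 7 genes, and the share of all genes that do so was not counted. The KO and control points of a tissue overlap except for H2-DMa in muscle, where the lowest KO library (1.687 TPM) lies just above the highest control library (1.681 TPM).

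By mean level in fat the order was Cd74 (536 ± 141 TPM), H2-Eb1 (167 ± 48.0), H2-Ab1 (150 ± 39.9), H2-Aa (126 ± 35.7), H2-DMb1 (16.3 ± 4.48), H2-DMa (10.5 ± 2.52) and Ciita (5.93 ± 1.24; SD, n = 8 each). In muscle it was Cd74 (50.2 ± 11.7 TPM), H2-Ab1 (14.3 ± 3.43), H2-Eb1 (13.9 ± 3.53), H2-Aa (11.2 ± 2.68), H2-DMa (1.69 ± 0.473), H2-DMb1 (1.59 ± 0.592) and Ciita (0.460 ± 0.120). Cd74 stood above the next gene, and H2-Aa above the H2-DM chains, without any overlap of their ranges in either tissue. H2-Eb1 exceeded H2-Ab1 in 7 of 8 fat libraries, whereas H2-Ab1 exceeded H2-Eb1 in 5 of 8 muscle libraries. The ranges of these neighbours overlapped in both tissues. Within a library the ratio of H2-Ab1 to H2-Eb1 had a geometric mean of 0.904 in fat (range 0.793 to 1.02). In muscle the ratio was 1.04 (0.802 to 1.24), and neither was tested. H2-DMb1 exceeded H2-DMa in 8 of 8 fat libraries with overlapping ranges, and H2-DMa exceeded H2-DMb1 in 4 of 8 muscle libraries. These orders rest on the exon lengths used as divisors, from 1679 bases for Cd74 to 9535 for Ciita. In mean CPM, which takes no account of length, fat had H2-Aa (144) above H2-Ab1 (116) and H2-Eb1 (97.7). Ciita (17.1) then stood above H2-DMa (10.9) and H2-DMb1 (8.28). The percents of Cd74 given below rest on the same lengths.

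The test across all genes called 7 of 7 members higher in fat (edgeR quasi-likelihood test, Benjamini-Hochberg adjusted p from 8.36e-10 to 6.44e-08, 16 libraries). In that comparison 79.6% of 17084 genes were called and 44% were called higher in fat, so a call by itself sets the members little apart. The log2 fold change, fat over muscle, was 2.75 ± 0.18 for Ciita, 2.67 ± 0.18 for H2-Eb1, 2.55 ± 0.19 for H2-Aa and 2.49 ± 0.17 for Cd74 (± SE). It was 2.47 ± 0.16 for H2-Ab1, 2.43 ± 0.22 for H2-DMb1 and 1.72 ± 0.16 for H2-DMa. The median of the members was 2.49, beside 0.16 for all genes tested. Without the TMM scaling, on library totals alone, the median of all genes moved to 1.36 and the members to 2.91 to 3.95. Relative to that median the members stood at 1.56 to 2.59 with TMM scaling and at 1.55 to 2.59 on library totals.

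The other class II genes were rare. H2-DMb2, a second DM beta chain, had 173 counts over the 8 fat libraries and 19 over the 8 muscle libraries, and H2-Ob, the beta chain of the H2-DM inhibitor H2-O, had 259 and 42. Both were called higher in fat, with log2 fold changes of 2.24 ± 0.27 and 1.77 ± 0.25 (± SE; edgeR adjusted p = 1.22e-06 and 7.19e-06). H2-Oa, the alpha chain of H2-O, had 56 counts in fat and 6 in muscle, and H2-Eb2 16 in fat and 6 in muscle, too few for the test. H2-Ea-ps, the I-E alpha chain, had 0 counts in all 16 libraries, which allows up to 0.138 to 0.227 CPM in a library. The gene is annotated as a polymorphic pseudogene, and a promoter deletion silences it in several laboratory strains. Whether the H2-Eb1 transcript gave an I-E molecule in these mice was not tested.

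The listed regulators of the class II pathway did not share one direction. Of 10 such genes 5 were called higher and 5 lower in fat with TMM scaling (edgeR, adjusted p under 0.05). Among the RFX, NF-Y and CREB genes of the list only Nfya and Rfx5 were higher. Higher in fat were Spi1 (log2 2.17 ± 0.26), which encodes the myeloid factor PU.1, Irf4 (2.03 ± 0.25) and Irf8 (1.28 ± 0.11), interferon regulatory factors of immune cells, Nfya (0.81 ± 0.10) and Rfx5 (0.49 ± 0.15). Lower in fat were the NF-Y subunits Nfyb (-1.51 ± 0.06) and Nfyc (-1.34 ± 0.09), the RFX subunits Rfxap (-0.98 ± 0.10) and Rfxank (-0.27 ± 0.08), and Creb1 (-0.21 ± 0.06). On library totals alone Rfxap, Rfxank and Creb1 turned to 0.22, 0.94 and 1.003, Nfyb stood at -0.31, and Nfyc at -0.12 was no longer called (adjusted p = 0.33, edgeR). With no filter on low counts Rfxank (-0.19, adjusted p = 0.108) and Creb1 (-0.14, adjusted p = 0.0968) were no longer called either. Rfxap, Rfxank and Creb1 were below the median of all genes under both scalings.

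Of 7 tested genes on the route by which interferon-gamma reaches Ciita, 4 were called higher and 2 lower in fat. The receptor chain Ifngr1 was higher (log2 1.41 ± 0.16) and its partner Ifngr2 lower (-2.09 ± 0.07). Irf1 (1.12 ± 0.11), a transcription factor that acts on the interferon-responsive Ciita promoter, was higher, as were the feedback inhibitor Socs1 (1.52 ± 0.32) and Irf2 (0.21 ± 0.08), while the kinase Jak2 was lower (-1.10 ± 0.10) and turned to 0.12 on library totals alone. The call of Irf2 was lost with mouse as a block (0.21, adjusted p = 0.139), with DESeq2 (0.19, adjusted p = 0.0502) and without any 1 of the mice 131, 138, 11, 139 and 960 (0.14 to 0.21, adjusted p from 0.0639 to 0.111). Ifng itself had 6 counts over the 8 fat libraries and 0 over the 8 muscle libraries. Of 9 genes of peptide loading and class II turnover 7 were called higher and 1 lower. Ctss, the cathepsin that cuts the invariant chain, differed by 1.86 ± 0.17, and March1, the ubiquitin ligase that removes class II from the surface, by 2.41 ± 0.22. The proteases Ctsb (1.75), Ctsd (1.28), Ctsl (1.13) and Lgmn (0.59) and the lysosomal thiol reductase Ifi30 (0.91) were also higher, and the ligase March8 was not called at 0.02. Sppl2a, which cleaves the last Cd74 fragment, was lower at -1.11 ± 0.06 and turned to 0.10 on library totals alone. Of 5 costimulation genes tested 4 were called higher, namely Cd86 (1.92 ± 0.19), Cd80 (1.91 ± 0.25), Icosl (1.01) and Cd274 (0.52). The call of Cd274 was lost without control mouse 131, 137 or 11 (0.44 each, adjusted p from 0.0506 to 0.0645). All 12 class I presentation genes were called higher, with a median of 1.66 and a range of 0.58 to 3.37, and they include Nlrc5, the class I counterpart of Ciita, at 2.67.

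**Figure D2:**
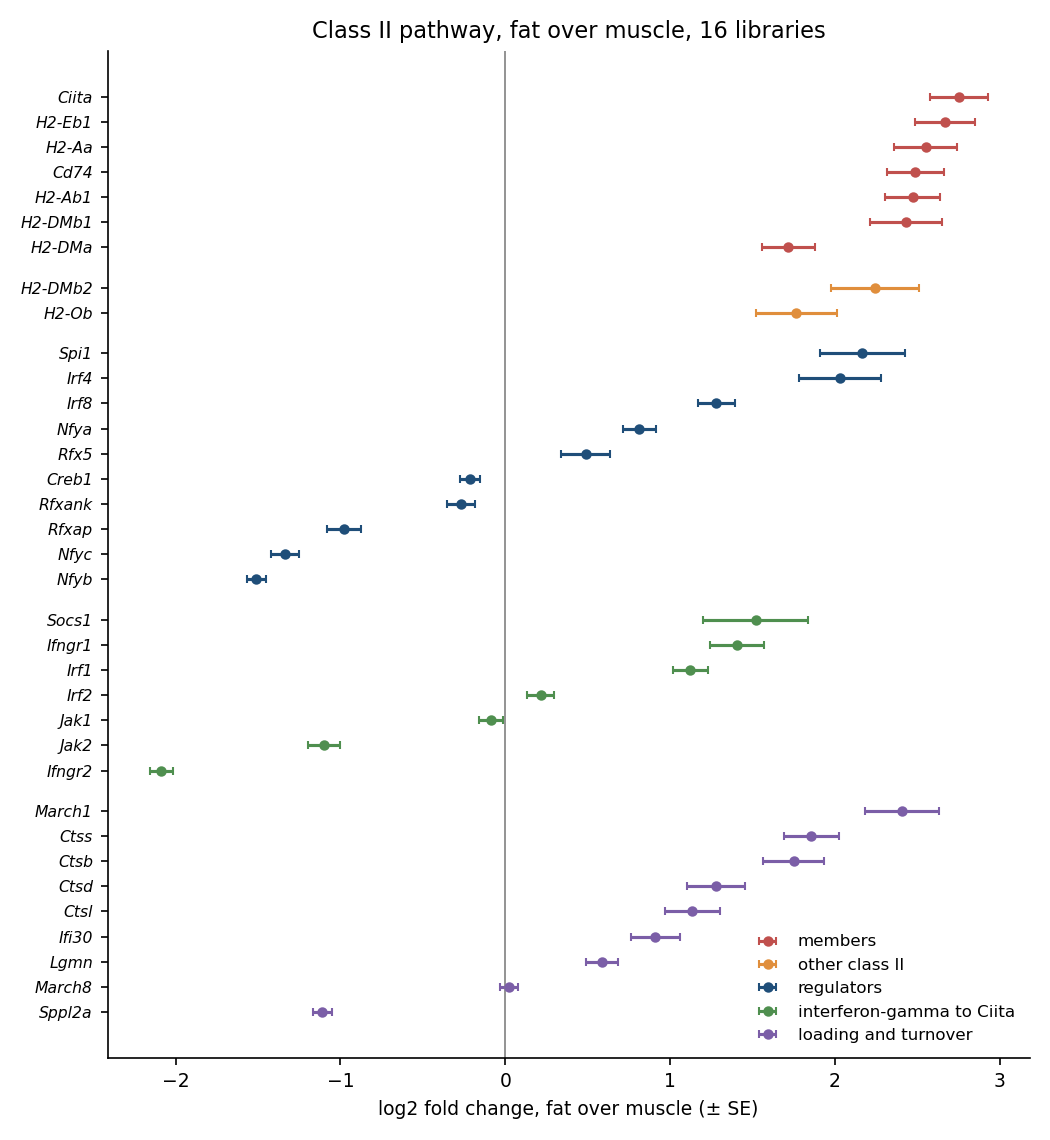
Log2 fold change, fat over muscle (horizontal axis, points with ± SE, 16 libraries, TMM scaling), of the members and of 4 other gene lists of the class II pathway, sorted within each list. The 7 members lie between 1.72 and 2.75, whereas the 10 regulators run from -1.51 to 2.17.

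The 4 genes H2-Aa, H2-Ab1, H2-Eb1 and Cd74 kept nearly fixed proportions from mouse to mouse in fat, and looser ones in muscle. Across the 8 fat libraries the SD of the log2 level was 0.42 to 0.48 for these genes, while the SD of the log2 ratio of any pair of them was 0.05 to 0.10. In muscle the SD was 0.33 to 0.35 for the levels and 0.10 to 0.24 for the ratios. H2-Aa stood at 23.3% of Cd74 in fat and 22.3% in muscle, H2-Ab1 at 28.0% and 28.5%, and H2-Eb1 at 31.0% and 27.5% (geometric means of TPM over 8 mice). The SD of the log2 ratio to Cd74 was 0.29 for H2-DMa, 0.22 for Ciita and 0.16 for H2-DMb1 in fat, above the range of the 4 genes. In muscle it was 0.50 for H2-DMb1 and 0.26 for Ciita, above that range, and 0.18 for H2-DMa, within it. These muscle values rest on 5 to 25 counts a library for H2-DMb1, 10 to 33 for Ciita and 15 to 48 for H2-DMa. Counting error adds to such SDs, and its part in them was not tested.

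H2-DMa departed from Cd74 between the tissues. Its level was 1.98% of that of Cd74 in fat, with a range over mice of 1.51% to 2.93%, and 3.34% in muscle, with a range of 2.77% to 4.11%. The log2 ratio to Cd74 was lower in fat than in muscle in 8 of 8 mice, by -0.75 on average (SD 0.31, exact two-sided sign-flip permutation test, p = 0.00781, the smallest that 8 mice allow, and 0.0469 adjusted over the 6 ratios compared). None of the other 5 ratios passed. The differences were 0.31 (SD 0.41) for Ciita, 0.17 (SD 0.22) for H2-Eb1, 0.06 (SD 0.11) for H2-Aa, -0.01 (SD 0.47) for H2-DMb1 and -0.02 (SD 0.15) for H2-Ab1, with adjusted p from 0.117 to 0.93 in the same exact permutation test. This comparison was chosen after the levels were seen. On the opposite strand the annotation of H2-DMa overlaps Brd2, a chromatin reader with 134 CPM in fat and 65.2 CPM in muscle beside 10.9 and 1.47 CPM for H2-DMa (CPM of library totals), and the part of reads from Brd2 in the H2-DMa count was not tested. Ciita overlaps Dexi on the opposite strand in the same way, at 7.61 CPM in fat and 11.4 CPM in muscle. H2-DMb1 shares 22.3% of its 51-base stretches with H2-DMb2, so that reads can be split between them, whereas H2-Aa shares 0.462% and Cd74, H2-Ab1, H2-Eb1, H2-DMa and Ciita share none.

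**Figure D3:**
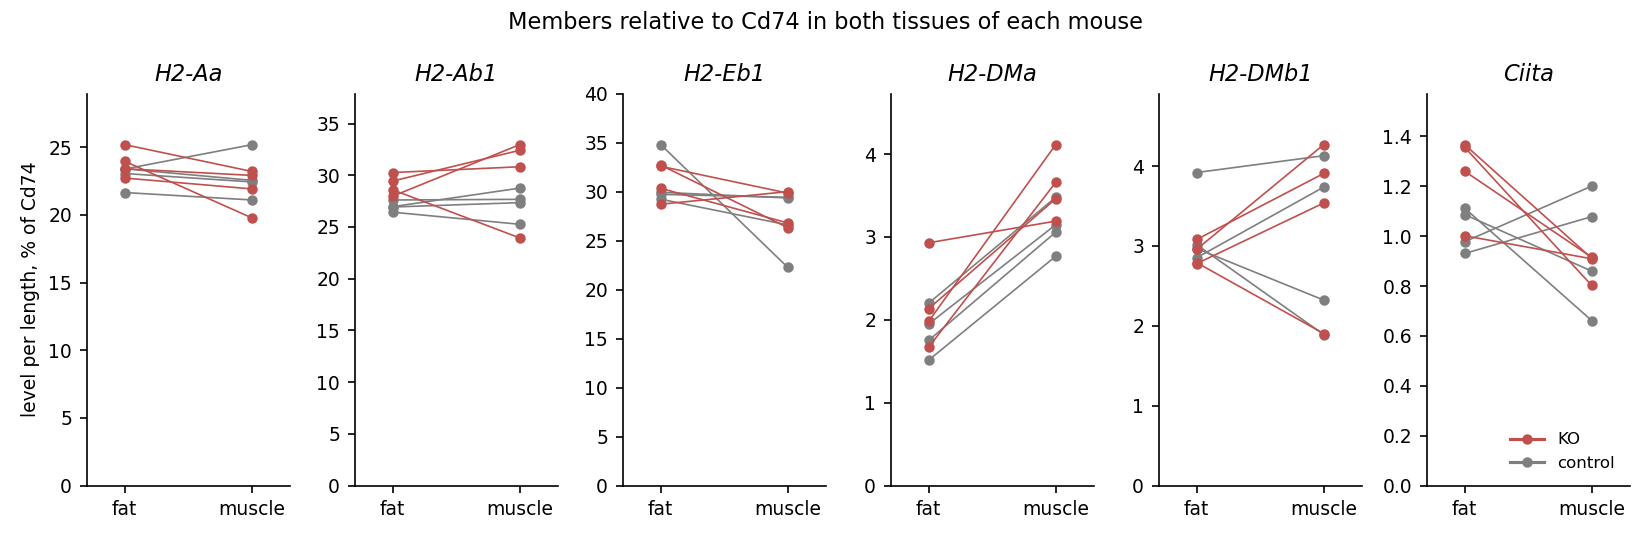
Level per length of 6 members as a percent of Cd74 in the same library (vertical axes from 0), with fat and muscle of each mouse joined by a line and KO mice in red, control mice in grey. H2-DMa is lower in fat in all 8 mice, with geometric means of 1.98% in fat and 3.34% in muscle, and none of the other 5 ratios passed the test.

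Genes listed as markers of class II-positive cells were also more abundant in fat. Of 13 macrophage markers 12 were called higher and 1 lower in fat (median log2 2.28), all 8 tested dendritic cell markers were called higher (median 2.47), and 2 of 3 tested B cell markers were called higher. Macrophage markers summed to 717 to 1256 CPM in fat KO, 724 to 1342 in fat control, 120 to 140 in muscle KO and 86.7 to 122 in muscle control libraries. Dendritic markers summed to 80.9 to 100 CPM in fat KO, 55.0 to 95.6 in fat control, 10.2 to 13.1 in muscle KO and 9.22 to 13.5 in muscle control. B cell markers stayed at 3.12 to 4.68, 2.06 to 5.76, 0.414 to 1.24 and 0.211 to 1.40 CPM in the same groups. No marker of these 3 lists was at 0 in a whole group. In fat most of the dendritic sum came from Zbtb46 (mean 37.0 CPM) and Clec10a (31.4 CPM). Deviations from the group means in fat were correlated with the mean deviation of H2-Aa, H2-Ab1, H2-Eb1 and Cd74. Pearson r was 0.05 for Zbtb46 and 0.89 for Clec10a, and -0.91 and 0.996 without mouse 138. How much of the sum came from dendritic cells was not tested. Clec9a (2.72), Flt3 (2.66) and Batf3 (1.52) gave little of it. Per CPM of macrophage markers, H2-Aa, H2-Ab1, H2-Eb1 and Cd74 together gave 0.620 ± 0.059 CPM in fat and 0.412 ± 0.065 CPM in muscle (SD, n = 8 each), with fat above muscle in 8 of 8 mice. The part of the numbers of these cells in the tissue difference was not tested.

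**Figure D4:**
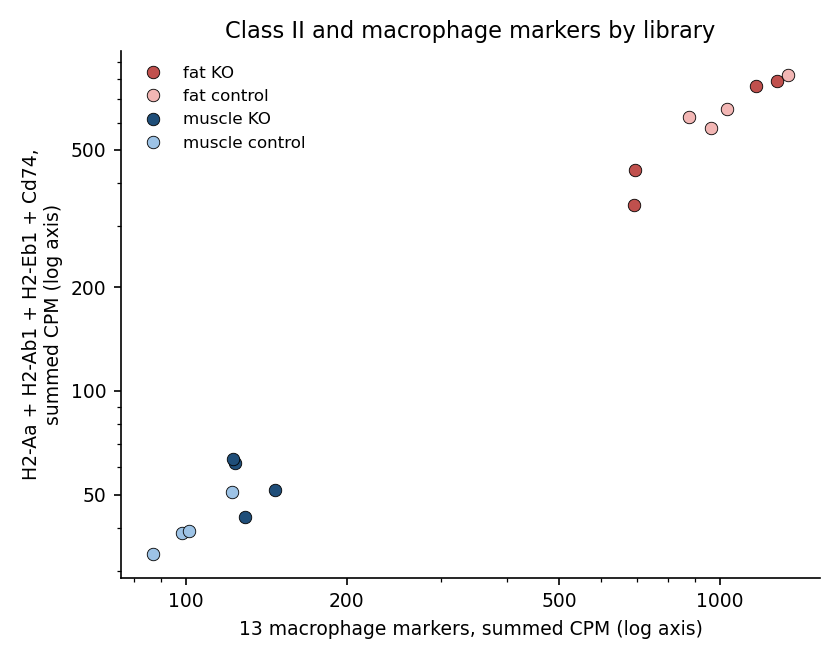
Summed CPM of 13 macrophage markers (horizontal, log axis) against summed CPM of H2-Aa, H2-Ab1, H2-Eb1 and Cd74 (vertical, log axis), both of library totals, 1 point per library. Fat and muscle libraries form separate clouds, and the pair of low fat points are the KO mice 139 and 960.

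In muscle the question of the design is whether deletion of MyD88 there changes these transcripts. None of the 7 members was called, although all 7 had a fold change above 0, as did 50.8% of all genes tested. H2-Ab1 had 10.3, 12.5, 9.32 and 10.5 CPM in KO mice 139, 958, 960 and 29, against 7.15, 6.66, 9.61 and 7.57 CPM in control mice 131, 137, 138 and 11. For H2-Ab1, 3 of the 4 KO libraries exceeded every control library and the groups overlapped through KO mouse 960 and control mouse 138. The log2 fold change, KO over control, was 0.46 ± 0.13 (± SE; edgeR p = 0.00379, adjusted p = 0.907), and the exact permutation test of the same 4 against 4 libraries gave p = 0.0571.

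H2-DMa had 1.36, 1.88, 1.56 and 2.16 CPM in the KO mice, in the same order, against 1.05, 1.08, 1.42 and 1.17 CPM in the control mice. H2-Eb1 had 7.22, 8.07, 5.74 and 9.94 CPM in the KO mice, against 6.31, 4.67, 5.86 and 6.15 CPM in the control mice. In both genes 3 KO libraries lay above all controls, and the highest were those of mice 29 and 958. Cd74 had 20.8, 26.5, 18.5 and 28.7 CPM in the KO mice, against 18.5, 15.1, 22.7 and 18.1 CPM in the control mice. The fold changes were 0.56 ± 0.22 for H2-DMa, 0.44 ± 0.16 for H2-Eb1 and 0.35 ± 0.15 for Cd74 (log2 ± SE; unadjusted p = 0.0241, 0.0173 and 0.0437, adjusted p from 0.923 to 0.949, edgeR). H2-DMb1 ran from 0.504 to 1.12 CPM in KO and from 0.351 to 0.677 CPM in control libraries, resting on 5 to 25 counts a library (0.52 ± 0.33). H2-Aa ran from 9.17 to 13.9 CPM in KO and from 7.23 to 12.9 CPM in control libraries (0.27 ± 0.17). Ciita ran from 0.946 to 1.48 CPM in KO and from 0.569 to 1.26 CPM in control libraries (0.26 ± 0.28). On the TMM scale the groups overlapped for all 7 members, while for H2-DMa they did not on library totals (lowest KO library 1.433 CPM, highest control library 1.423 CPM) or as TPM (1.687 and 1.681). This was in a tissue where KO lies above all controls for 1.78% of the genes tested, KO lies below all controls for 1.59% and the groups fail to overlap either way for 3.38% (TMM scale).

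Over all 14183 genes tested in muscle 0.0141% were called. At an unadjusted p under 0.05, 4 of 7 members stood higher in KO muscle, beside 3.17% of all genes (5.04% in either direction), DESeq2 called 0 of 7 as well, and the median of the members was 0.44, beside 0.00 for all genes (log2). The members move together from mouse to mouse, so these 4 are not separate observations. Macrophage markers pointed the same way, with 11 of 12 tested above 0 (50.8% of all genes), a median of 0.40 and none called. Their sums were 120 to 140 CPM in KO and 86.7 to 122 CPM in control muscle. Dendritic markers did not, with 1 of 2 tested above 0, a median of 0.04 and none called. They summed to 10.2 to 13.1 CPM in KO and 9.22 to 13.5 CPM in control muscle. General leukocyte markers had 5 of 5 above 0, with a median of 0.51, none called, and sums of 17.0 to 21.0 CPM in KO and 11.6 to 18.7 CPM in control muscle. Per macrophage marker CPM, the 4 abundant class II genes gave 0.426 ± 0.096 in KO and 0.397 ± 0.014 in control muscle (SD, n = 4 each). The part of these markers in the class II values was not tested. Without control mice 131 and 11 the members stood at 0.21 to 0.56 and none was called.

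In visceral fat, which was not the target of the deletion, the members gave no call either (0 of 7, beside 0.00613% of 16323 genes). That is 1 gene, against 8 genes and no member with mouse as a block (limma voom). Cd74 had 155, 322, 201 and 320 CPM in KO mice 139, 958, 960 and 29, against 326, 268, 219 and 361 CPM in control mice 131, 137, 138 and 11. KO mice 139 and 960 lay below every control, and KO mice 958 and 29 lay within the range of the controls. H2-DMb1 had 4.61, 8.997, 5.597 and 9.89 CPM in the KO mice, against 9.83, 10.5, 6.49 and 10.3 CPM in the control mice. Ciita had 11.97, 23.0, 15.6 and 18.2 CPM in the KO mice, against 18.1, 16.9, 13.5 and 19.1 CPM in the control mice. Mice 139 and 960 were again the lowest KO libraries for both genes. H2-Aa ran from 82.3 to 183 CPM in KO and from 116 to 191 CPM in control fat, H2-Ab1 from 69.996 to 149 and from 92.3 to 149, and H2-Eb1 from 51.7 to 122 and from 88.1 to 125. H2-DMa ran from 8.19 to 14.1 CPM in KO and from 7.87 to 14.5 CPM in control fat.

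The log2 fold change in fat, KO over control, was -0.35 ± 0.28 for H2-DMb1, -0.23 ± 0.27 for Cd74, -0.19 ± 0.28 for H2-Eb1 and -0.16 ± 0.29 for H2-Aa (± SE). It was -0.12 ± 0.27 for H2-Ab1, -0.06 ± 0.23 for H2-DMa and 0.03 ± 0.20 for Ciita, and the adjusted p ran from 0.717 to 0.98 (edgeR). No member had an unadjusted p under 0.05, beside 7.99% of all genes, DESeq2 called 0 of 7, and the exact permutation tests gave p from 0.2 to 1. The groups overlapped for all 7, in a tissue where the groups fail to overlap for 6.36% of the genes tested. The value was above 0 for 1 of 7 members, beside 47.9% of all genes. Of 13 macrophage markers 2 were above 0, with a median of -0.19 and none called. Of 8 tested dendritic markers 4 were above 0, with a median of 0.01 and none called. Without the fat library of mouse 138 the fold changes were -0.49 for H2-DMb1, -0.35 for Cd74, -0.28 for H2-Aa, -0.26 for H2-Eb1, -0.23 for H2-Ab1, -0.20 for H2-DMa and -0.07 for Ciita, and none was called.

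**Figure D5:**
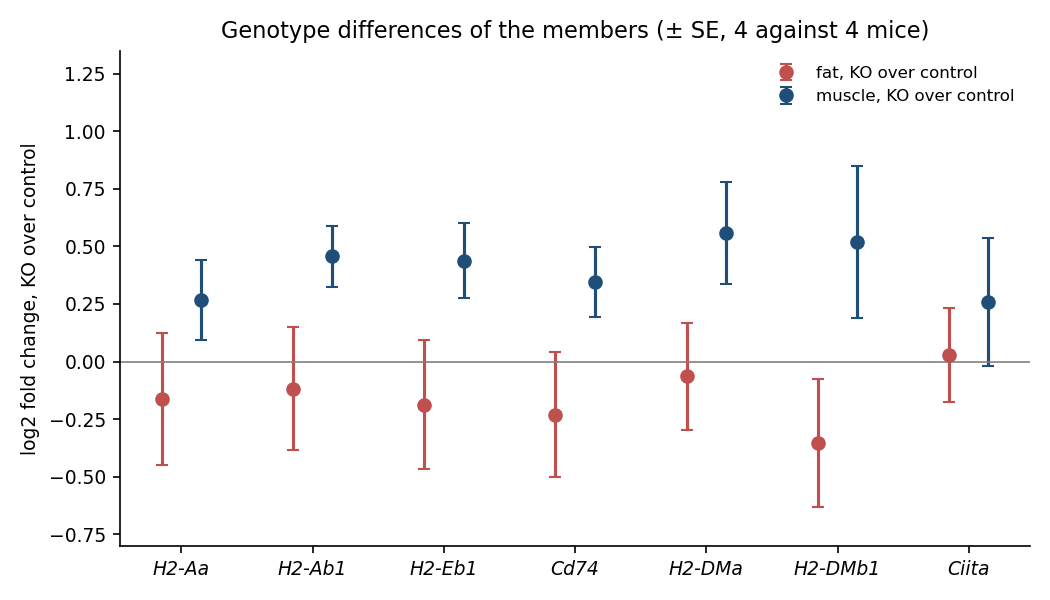
Log2 fold change, KO over control (vertical axis), of each member in fat (red) and in muscle (blue), with ± SE from the edgeR fit of 4 KO and 4 control libraries per tissue. All 7 muscle values lie above 0 (0.26 to 0.56) and 6 of 7 fat values below 0 (-0.35 to 0.03), and none was called.

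The difference between the tissues in the genotype effect was tested directly and was not called for any member (0 of 7, beside 0% of 17084 genes, edgeR). Fat minus muscle, it was -0.89 ± 0.44 for H2-DMb1, -0.63 ± 0.35 for H2-Eb1, -0.63 ± 0.31 for H2-DMa, -0.58 ± 0.32 for H2-Ab1 and -0.58 ± 0.33 for Cd74. It was -0.44 ± 0.36 for H2-Aa and -0.23 ± 0.35 for Ciita (log2 ± SE; unadjusted p from 0.0591 to 0.518, adjusted p from 0.687 to 0.918). At an unadjusted p under 0.05 there were 1229 genes (7.19%), none of them a member, and DESeq2 called 11 genes and no member. Without the fat library of mouse 138 the values were -0.34 (Ciita) to -1.03 (H2-DMb1), the unadjusted p was 0.0173 for H2-DMa and 0.027 for H2-DMb1, and none was called, with adjusted p from 0.348 to 0.747.

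The rest of the class II pathway gave no call in either genotype comparison. In fat H2-DMb2 and H2-Ob both stood at -0.27 (adjusted p = 0.759 and 0.794, edgeR), and in muscle no other class II chain had enough counts for the test. In muscle the smallest p among the interferon-gamma genes was that of Irf1 (log2 0.44 ± 0.15, adjusted p = 0.907), followed by Irf2 (-0.19 ± 0.10) and Ifngr1 (-0.13 ± 0.11). In fat it was that of Ifngr2 (-0.31 ± 0.09, adjusted p = 0.588), followed by Irf2 (0.40 ± 0.14) and Irf1 (0.28 ± 0.12). For Ifngr2 all 4 KO fat libraries lay below all controls, as for 3% of all genes, and for Irf2 all 4 lay above, as for 3.36%. Among the regulators the smallest p belonged to Rfx5 in muscle (0.27 ± 0.21) and to Irf8 in fat (-0.42 ± 0.16). In loading and turnover it belonged to Ctss in muscle (0.42 ± 0.17) and to Lgmn, an asparaginyl endopeptidase of the lysosome, in fat (-0.31 ± 0.15). Cd274, the checkpoint ligand PD-L1, led costimulation in both tissues, at 0.49 ± 0.20 in fat and 0.26 ± 0.24 in muscle. All 12 class I presentation genes had fold changes above 0 in fat (median 0.26) and in muscle (median 0.22), beside 47.9% and 50.8% of all genes. They were led by the immunoproteasome subunit Psmb9 in fat (0.49 ± 0.16) and Psmb10 in muscle (0.40 ± 0.13), and none was called. Their sum was 1665 CPM in the unlike fat library of control mouse 138. It was 3657 to 3854 CPM in the other control fat libraries and 3714 to 4113 CPM in KO fat. The whole list was not summarised without that library.

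The members of 1 mouse did not run in parallel between its tissues to a degree that 8 mice could show. Over the 7 members the correlation of muscle with fat levels ran from r = -0.19 for H2-DMb1 to r = 0.40 for Ciita, and Spearman's rho from -0.10 to 0.60 (exact permutation tests, 7 relations, adjusted p of 0.926 or more). Leaving out the 2 mice farthest from the median, r ran from -0.73 to 0.81.

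Within fat, the genes whose deviations from the group means were most like the mean of H2-Aa, H2-Ab1, H2-Eb1 and Cd74 were AB124611 (Pearson r = 0.99), the mast cell tryptase Tpsb2 (0.99), the macrophage receptor Adgre1 (0.98), the flagellin receptor Tlr5 (0.97) and Ms4a6c (0.97). This is a description over 8 libraries and 15402 genes, which share depth and tissue composition. Without mouse 138 the first 5 were Scamp5, Clec10a, Eif3h, Hpse and AB124611. Among the members outside that mean, Ciita followed at r = 0.93 and H2-DMb1 at 0.92, while H2-DMa reached 0.73. Within muscle the 5 most alike of 12707 genes were the sialic acid synthase Nans (0.99), the inflammatory caspase Casp4 (0.98), the zinc finger gene Zik1 (0.98), the cathepsin Ctsk (0.97) and Mfhas1 (0.97), and H2-DMa reached 0.77 and Ciita 0.82. The macrophage receptor Adgre1, at 0.98 in fat, stood at 0.58 in muscle (rank 918).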

How the data were processed

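The authors deposited raw counts per gene for 16 libraries (ribosomal RNA depletion and stranded total RNA libraries, per the labels' protocols). The submitters' processing notes list STAR 2.7.0f, featureCounts 1.6.3, DESeq2 1.22.2 and GRCm38. Strand and multi-mapping settings are not recorded in the labels, and reads of overlapping or near-identical genes may therefore be split or shared. Genes were named through GENCODE M21.

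edgeR 4.0.16 (R 4.3.3) quasi-likelihood tests used TMM scaling, filterByExpr and Benjamini-Hochberg adjustment over all genes tested, with a call at adjusted p under 0.05. Each tissue was fitted alone for genotype, and all 16 libraries for the tissue difference and the interaction. Alternatives were RLE factors, library totals, other filters, DESeq2 1.42.0, voom (limma 3.58.1), mouse as a block and leaving out each mouse. Exact tests used log2(CPM + 0.5), and 4 against 4 libraries cannot give p below 0.0286. The scripts were tested on simulated data. Depth intervals and floors cover counting error only. Each mouse gave both tissues, per the labels' subject numbers; deviations of the pair from the group means correlated at -0.02 to 0.13 over 13629 genes. No pair of libraries of a group agreed within sampling noise.

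The members, lists and tests were chosen with earlier results of these data known. Named are all members, the other class II chains, called genes of the pathway lists in the tissue comparison, up to 3 genes per list with the smallest p in a genotype comparison, and the 5 genes most alike in pattern per tissue. Cell type lists are described by their sums, counts and medians. 1 item of the interferon-gamma list is not reported here.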

Additional observations from a re-analysis of the deposited data

Results flagged for a closer look

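In fat of control mouse 138, H2-DMb1 had 6.49 CPM, far from the other 3 control mice at 9.83 to 10.5 CPM; the gap was 0.83 of the whole range of the group, just past the 95% critical value of Dixon's test. This was 1 of 28 groups of 4 libraries examined, and chance sets apart about 1 in 20. The library is the one with few adipocyte and many smooth muscle and urothelium transcripts, and its TMM factor was 1.23, against 0.89 to 1.001 in the other control fat libraries. Per length, as TPM, H2-DMb1 had 16.1 there, again the lowest of the group, against 16.99 to 20.6 TPM in the other 3 control mice. The part of the tissue makeup of that library in the value was not tested.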

How the results depend on the processing

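The 7 members were called higher in fat, and 0 of 7 were called in either genotype comparison or in their difference, under every alternative that gave them a value, mouse as a replicate block included (7, 0, 0 and 0 members called). The tissue fold changes of the members ran from 1.64 to 3.95 (log2). Over all genes the calls numbered 1 to 80 in muscle (2 in the fit reported, 80 with no filter on low counts, 10 with DESeq2 and 10 without mouse 29), 0 to 72 in fat (1 reported, 72 with DESeq2, 8 with the mouse block and 6 without mouse 138) and 0 to 11 for the difference (0 reported, 11 with DESeq2). H2-Ab1 in muscle had adjusted p from 0.0652 to 1, and H2-D1 passed in muscle with no filter (0.0446). On library totals the exact test passed for 1 member, H2-DMa in muscle (p = 0.0286), against 0 in the test reported.

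In fat some small values turned sign. Ciita was -0.00203 with voom, and without 1 mouse at a time it ran from -0.147 to 0.16 (-0.0707 without mouse 138, -0.00264 without 29). Without 1 mouse at a time H2-DMa ran from -0.229 to 0.0771, H2-Aa from -0.345 to 0.00855, H2-Ab1 from -0.293 to 0.0443, H2-Eb1 from -0.361 to 0.000964 and Irf4 from -0.113 to 0.565. In muscle Icosl ran from -0.0819 to 0.243 and Cd40 from -0.0158 to 0.461. Between tissues Rfxap (0.22), Rfxank (0.94), Creb1 (1.003), Jak2 (0.12) and Sppl2a (0.10) turned on library totals, where the median of all genes stood at 1.36. Calls lost between tissues, 13 in all, were those of Nfyc, Rfxank, Creb1, Irf2 and Cd274, with values from -0.195 to 0.44. The cause of the other turns was not tested. H2-DMa relative to Cd74 ran from -0.84 to -0.70 without 1 mouse at a time (exact permutation p = 0.0156). That p is the smallest the remaining mice allow, so it shows only that their signs agreed. It was not adjusted over the ratios compared, so whether the adjusted call holds without a mouse was not tested. A filter of 1 CPM in at least 4 libraries left no muscle value for H2-DMb1, whose lowest library has 5 counts (95% Poisson interval 1.62 to 11.7).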
